A study of Mus musculus with 24 samples.

Results

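Fasn, Acaca, Acly, Scd1, Elovl6, Thrsp, Srebf1 and Sqle are genes of fatty acid and sterol synthesis, taken as a list of names. They are 8 of the 55385 genes counted in each library, and their symbols were matched to the Ensembl identifiers of the count tables. RNA was sequenced from the gastrocnemius, a muscle of the calf, of 24 female C57BL/6J mice in 6 groups of 4, with 1 library per mouse. Young GFP (3-6 months of age), old GFP (21-24 months) and oldest-old GFP mice (27-29 months) had received an adeno-associated virus that carries green fluorescent protein. The AAV-Kl mice of the old and of the oldest-old age, matched to their GFP groups, had received the virus with mouse Klotho, a hormone made mainly by the kidney. In these vectors a liver-specific promoter drives the transgene, so that the muscle is not the organ meant to make it, and muscle was collected 14 days after injection into the tail vein. A sixth group is labelled young sham, and the methods of the study do not describe it further. The mice sequenced had been picked from the middle of their group's range in a hang test, and mice with visible pathology had been left out.

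Cells build fatty acids from citrate that leaves the mitochondrion. ATP citrate lyase (Acly) turns it into acetyl-CoA, acetyl-CoA carboxylase 1 (Acaca) makes malonyl-CoA from that, and fatty acid synthase (Fasn) joins the units into palmitate. Elovl6 lengthens palmitate, and stearoyl-CoA desaturase 1 (Scd1) puts a double bond into the product. Thrsp, or Spot 14, is a thyroid hormone responsive protein of lipogenic tissues. Srebf1 encodes SREBP-1, the transcription factor that drives fatty acid genes, and Sqle encodes squalene epoxidase, an early enzyme of the branch that is specific to sterols. Liver and fat are the tissues in which these genes are most active, whereas muscle makes little fatty acid itself, and fat cells lie between and around the fibres of a dissected muscle.

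Each library had from 36415886 to 59733985 reads on genes. The tissue carried its label, since the fibre genes Acta1 and Myh4 stood at 23040 CPM (counts scaled to 1000000 reads per library, with TMM factors) or more and 42610 CPM or more in every library. Klotho itself had 0 to 13 reads in old GFP and 3 to 9 in old AAV-Kl libraries. It had 1 to 6 in oldest-old GFP and 2 to 9 in oldest-old AAV-Kl libraries. The muscle counts thus do not separate the AAV-Kl mice from their controls. The vector carried a Klotho sequence with altered codons, and its reads may not be counted as the mouse gene. These counts therefore cannot show whether the muscle held RNA of the transgene. Some libraries held RNA of other tissues. The summed CPM of 12 hepatocyte genes ran from 12.7 to 995 in old GFP mice, where the highest was mouse 1, against 3.93 to 14.5 in the young GFP group. The sum of 12 genes of keratinocytes and sebaceous glands was 392 in young GFP mouse 3 and 131 in young GFP mouse 1, and 5.92 in the lowest young GFP mouse.

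Fasn (ENSMUSG00000025153.9) lies on chromosome 11 of GRCm38 from 120805846 to 120824547 on the minus strand. Acly (ENSMUSG00000020917.17) is on the same strand of that chromosome, from 100476353 to 100528000. Also on chromosome 11 are Acaca (ENSMUSG00000020532.18), from 84129672 to 84401651 on the plus strand, and Srebf1 (ENSMUSG00000020538.15), from 60199089 to 60222581 on the minus strand. Scd1 (ENSMUSG00000037071.3) is on chromosome 19 from 44394455 to 44407879, minus strand, and Elovl6 (ENSMUSG00000041220.10) on chromosome 3 from 129532355 to 129638495, plus strand. Thrsp (ENSMUSG00000035686.8) lies on chromosome 7 from 97412938 to 97417730, minus strand, and Sqle (ENSMUSG00000022351.14) on chromosome 15 from 59315077 to 59331192, plus strand. The counts pay no regard to strand, and a read is counted only where it lies on a single gene and at a single place in the genome. Reads where Elovl6 and Acaca overlap antisense genes, where the end of Rai1 overlaps Srebf1, or that fit Scd1 and its close relatives Scd2, Scd3 and Scd4 alike are therefore uncertain and may be missing from the counts.

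Fasn and Acly rose and fell together between mice, as described below with the other fatty acid genes, of which some pairs were closer. The 250 bases before the start of each are shown as an example. Whether these sequences bear on the correlation was not tested. The sequences are from RefSeq (GRCm38.p6), 5′ to 3′ on the strand of the gene, at chr11:120824548-120824797 for Fasn and chr11:100528001-100528250 for Acly. Capitals mark each CCAAT and each GGGCGG, on either strand.
Fasn: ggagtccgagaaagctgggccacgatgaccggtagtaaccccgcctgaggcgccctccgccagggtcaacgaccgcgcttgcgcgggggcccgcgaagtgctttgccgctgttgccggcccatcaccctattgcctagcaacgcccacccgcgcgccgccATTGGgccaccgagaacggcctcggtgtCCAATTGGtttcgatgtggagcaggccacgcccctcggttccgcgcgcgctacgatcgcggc
Acly: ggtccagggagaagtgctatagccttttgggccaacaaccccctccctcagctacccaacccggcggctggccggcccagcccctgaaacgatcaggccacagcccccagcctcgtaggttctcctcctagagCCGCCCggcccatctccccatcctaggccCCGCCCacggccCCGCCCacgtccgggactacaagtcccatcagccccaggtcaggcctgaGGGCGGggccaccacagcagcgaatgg
Fasn held 3 CCAAT matches, of which the last 2 overlap by 2 bases, and Acly held 4 GGGCGG matches. CCAAT, the letters bound by NF-Y, was in 33.8% and GGGCGG, those bound by Sp1, in 32.7% of the 32851 windows of the same length before all gene starts given. Windows were given for 6 of the 8 genes, Scd1 and Sqle being without one. The window of Acaca is at a start inside the gene, and by the positions given above most of the window of Thrsp, with both of its CCAAT matches, and the end of that of Elovl6 lie within the gene as well. In the single windows of Acaca, Elovl6 and Thrsp and the 3 windows of Srebf1, CCAAT was found for Thrsp (2 matches) and Srebf1 (1 match in each of 2 windows) and GGGCGG for Srebf1 (2 matches in each of 2 windows). The letters CACGTG and TCACNCCAC, an E-box and a form of the sterol regulatory element, are in 6.02% and 1.05% of all windows, and none of the 8 windows of these genes held either.

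Per length of its exons, Scd1 was the highest of the 8 genes in every library, with a median of 75.7 RPKM (CPM divided by the exon length in kilobases) and a range of 11.4 to 497 RPKM. Fasn had a median of 6.86 RPKM, Srebf1 of 6.85 and Thrsp of 6.68, and the order of these neighbours was not settled: Fasn was above Srebf1 in 13 and Srebf1 above Thrsp in 10 of the 24 libraries. Acly followed with 4.19 RPKM, below Thrsp in 22 libraries, and Acaca with 1.76 RPKM, below Acly in all 24. The lowest levels were those of Sqle, at 0.585 RPKM, and Elovl6, at 0.484 RPKM, with Sqle above Elovl6 in 14 libraries.

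The genes also differed in how far they varied between mice of the same group. The standard deviation of log2 CPM within groups was 1.75 for Fasn, 1.53 for Scd1, 1.40 for Elovl6 and 1.10 for Thrsp. It was 0.86 for Acaca and 0.84 for Acly, and 0.29 for both Srebf1 and Sqle. For each of the 8 genes this spread within groups was larger than the standard deviation of the 6 group means. The latter ran from 0.19 for Sqle to 0.86 for Fasn. Means of several mice vary less than single mice even where groups do not differ. Setting these spreads side by side therefore cannot show whether the groups differed.

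Acly stood at 14.9, 80.2, 86.6 and 23.8 CPM in young sham mice 1 to 4 and at 17.1, 34.8, 30.6 and 15.9 CPM in young GFP mice. Old GFP mice had 34.6, 20.97, 17.8 and 19.8 CPM of Acly, and oldest-old GFP mice 18.6, 17.03, 16.3 and 23.2 CPM. With AAV-Kl it was at 17.99, 87.3, 25.1 and 24.5 CPM in old and at 16.4, 70.0, 14.3 and 24.9 CPM in oldest-old mice. In both AAV-Kl groups mouse 2 stood far above the rest, and in young sham mice 2 and 3 did. Acaca, the next enzyme, had the same high mice, at 132 CPM in old AAV-Kl mouse 2, 113 CPM in oldest-old AAV-Kl mouse 2 and 108 and 118 CPM in young sham mice 2 and 3. The 20 other mice lay between 19.7 CPM, in young GFP mouse 4, and 52.4 CPM, in oldest-old GFP mouse 4.

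Fasn had the widest range of the 8 genes, 55.2-fold from the lowest to the highest library. Its CPM were 46.0, 569, 645 and 135 in young sham, 22.4, 189, 184 and 18.04 in young GFP and 227, 65.9, 31.7 and 117 in old GFP mice. Oldest-old GFP mice had 58.9, 17.7, 34.4 and 85.5 CPM of Fasn. In old AAV-Kl mice the values were 68.3, 682, 84.2 and 77.4 CPM. Oldest-old AAV-Kl mice held both ends of the range, with 13.7, 756, 22.2 and 72.8 CPM. The values of every group overlapped those of every other, and the same 4 mice were highest as for Acly.

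Scd1 was at 115, 978, 1316 and 450 CPM in young sham and at 55.5, 918, 462 and 71.5 CPM in young GFP mice. Old GFP mice were closer together, at 823, 401, 482 and 486 CPM, as were oldest-old GFP mice, at 270, 298, 241 and 388 CPM. The AAV-Kl groups had 343, 2430, 270 and 353 CPM in old and 61.1, 2041, 89.1 and 233 CPM in oldest-old mice. The 4 oldest-old GFP mice all lay below the 4 old GFP mice. Elovl6, low throughout, had its highest values in the same 4 mice as Fasn, at 25.6, 25.1, 22.1 and 20.2 CPM, and lay between 0.824 and 9.39 CPM in the others. Oldest-old GFP mice had 1.81, 1.38, 2.20 and 1.21 CPM of Elovl6, a narrow group that young GFP mice, at 1.21 to 9.39 CPM, overlapped.

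Thrsp, the lipogenic protein Spot 14, was at 12.5, 56.6, 63.3 and 23.9 CPM in young sham and 7.82, 37.5, 27.1 and 8.86 CPM in young GFP mice. The old GFP group had 27.4, 12.9, 12.5 and 18.4 CPM and the oldest-old GFP group 18.1, 6.17, 8.72 and 18.5 CPM. The highest Thrsp value of all was 97.9 CPM, in oldest-old AAV-Kl mouse 2, whose group otherwise lay between 6.32 and 15.4 CPM, and old AAV-Kl mouse 2 had 53.8 CPM beside 13.1 to 13.9 CPM in its group.

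Srebf1 and Sqle did not have these high mice to the same degree. Srebf1 ran from 23.5 to 54.4 CPM over all 24 libraries, a 2.31-fold range. Young sham mice had 48.5, 54.4, 52.6 and 47.0 CPM of Srebf1 and young GFP mice 30.4, 41.5, 36.1 and 26.9 CPM, so that these groups did not overlap. Its lowest, median and highest CPM were 33.0, 36.7 and 48.1 in old GFP, 31.5, 38.5 and 49.1 in old AAV-Kl, 30.4, 34.5 and 45.7 in oldest-old GFP and 23.5, 39.5 and 49.3 in oldest-old AAV-Kl mice, and these 4 groups overlapped. Sqle ran from 2.10 to 5.38 CPM, with 87 to 277 reads. Its highest library was oldest-old AAV-Kl mouse 4 and its lowest young GFP mouse 4, neither of them a mouse in which the fatty acid genes were at their highest. By group Sqle was at 3.44 to 4.60 CPM in young sham, 2.10 to 3.47 CPM in young GFP, 2.68 to 3.81 CPM in old GFP and 2.76 to 3.40 CPM in oldest-old GFP mice. With AAV-Kl it was at 2.35 to 4.27 CPM in old and 2.86 to 5.38 CPM in oldest-old mice, and each of these ranges overlapped those it is compared with.

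**Figure D1:**
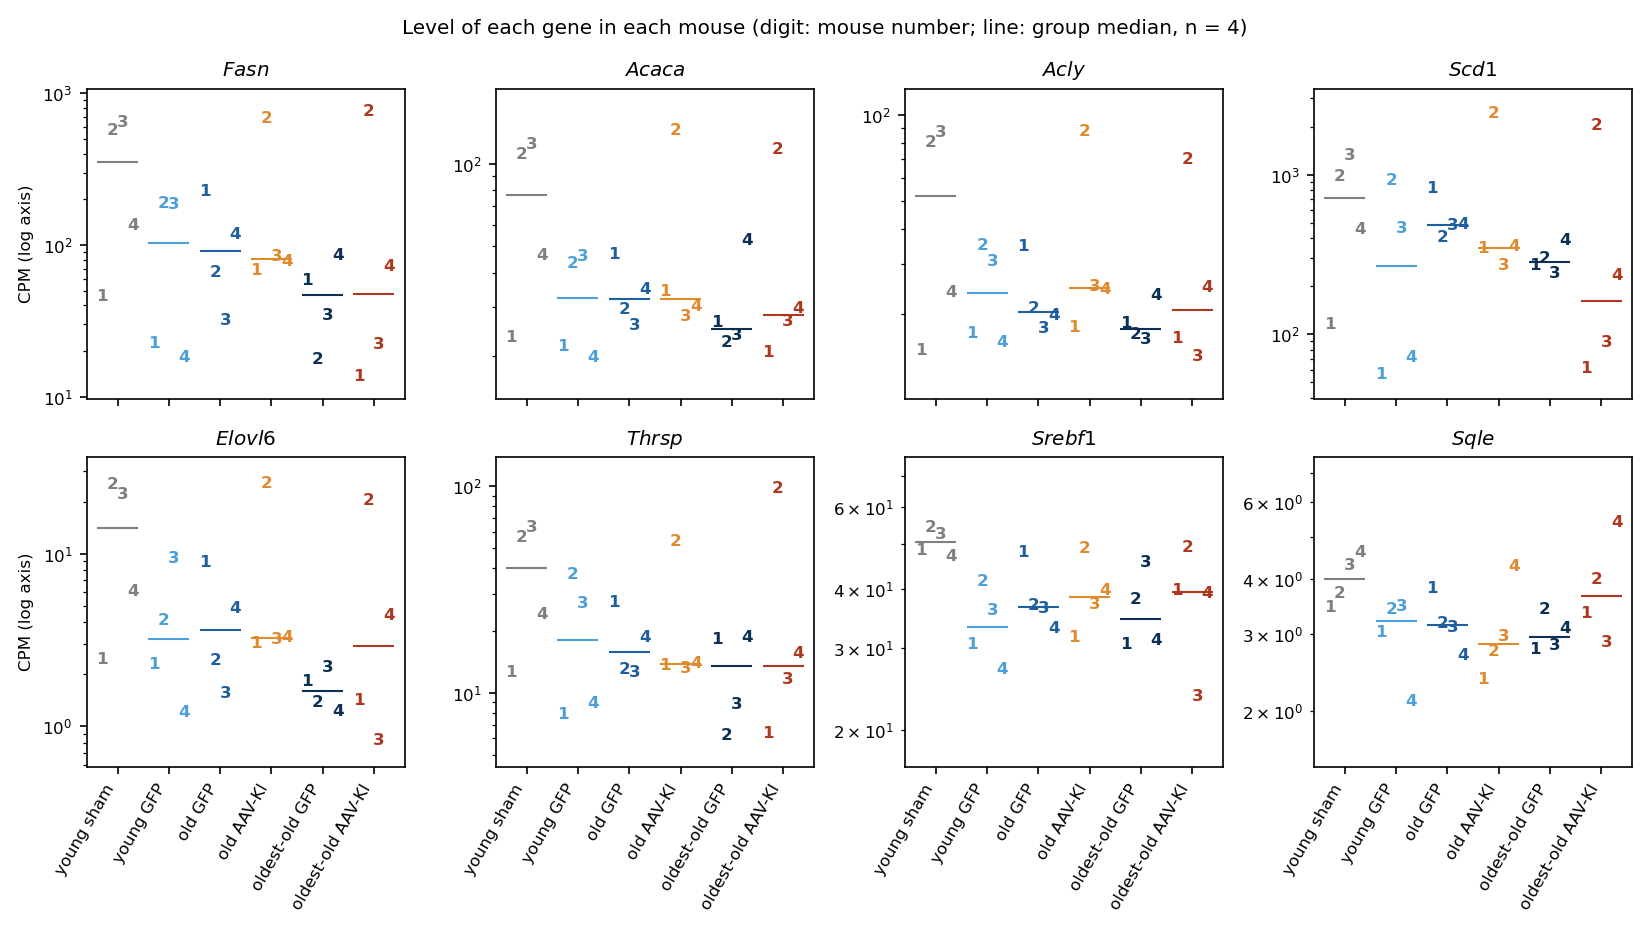
Level of each of the 8 genes in each of the 24 mice, in CPM on a log axis, by group; digits are mouse numbers and lines group medians (n = 4). Mouse 2 of old AAV-Kl and of oldest-old AAV-Kl and mice 2 and 3 of young sham stand above their groups for Fasn (569 to 756 CPM), Acaca, Acly, Scd1, Elovl6 and Thrsp, while Srebf1 stays within 23.5 to 54.4 CPM.

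The 6 fatty acid genes varied together across the 24 mice. After the mean of each group was removed from log2 CPM, Pearson's r of the 15 pairs among Fasn, Acaca, Acly, Scd1, Elovl6 and Thrsp lay between 0.86 and 0.978 and Spearman's rho between 0.837 and 0.97. Values were permuted within groups 100000 times, two-sided, and p-values were adjusted over all 28 pairs of the 8 genes by the Benjamini-Hochberg method. The largest adjusted permutation p of the 15 pairs was 0.000448 for r and 0.000373 for rho. Fasn and Thrsp were the closest pair, with r = 0.978 (adjusted permutation p = 4.67e-05). The unadjusted permutation p of that pair, 1e-05, was the smallest these permutations can give. With the 2 mice farthest from the median of the first gene of a pair left out, r was 0.779 to 0.966. The group means removed were those of all 24 mice, so these values are not free of the mice left out. Srebf1 followed the 6 genes less closely, with r of 0.496 to 0.709, and 4 of its 6 pairs had an adjusted permutation p under 0.05. Its r with the 2 farthest mice left out in the same way ranged from 0.289 to 0.605. For Sqle and the 6 genes r was 0.193 to 0.369, and 0 of the 6 pairs passed (adjusted permutation p of 0.23 to 0.481). The genes of a library share its depth and scaling.

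**Figure D2:**
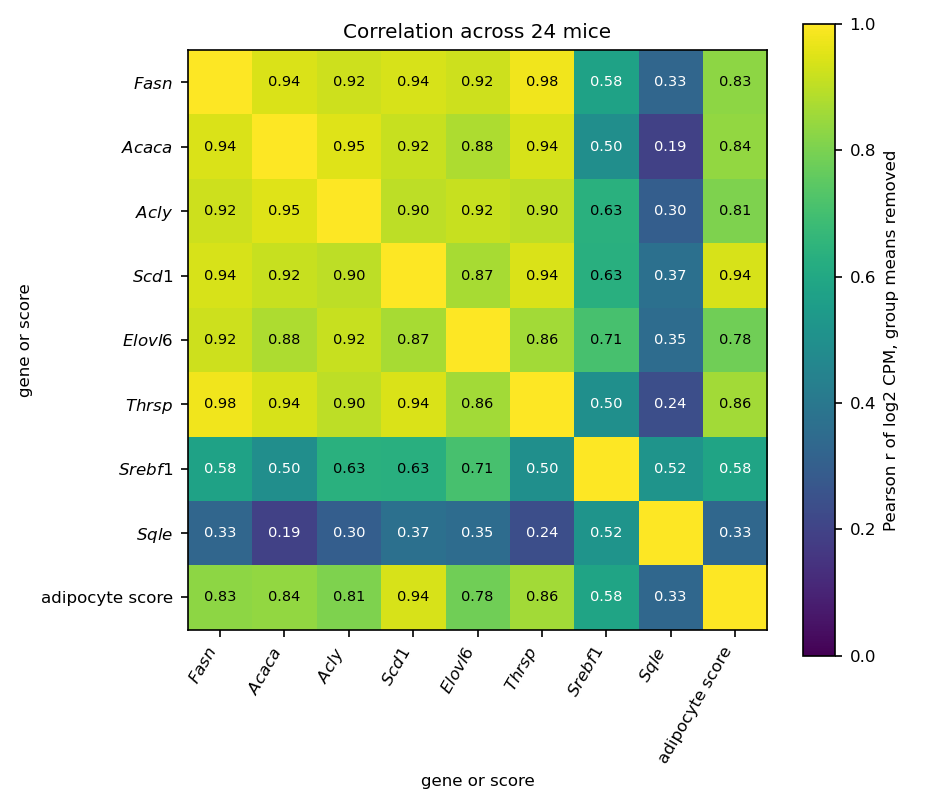
Pearson's r between the 8 genes, and between each gene and the adipocyte marker score, over 24 mice, from log2 CPM with the mean of each group removed. The block of Fasn, Acaca, Acly, Scd1, Elovl6 and Thrsp has r of 0.86 or more, and Sqle has r of 0.369 or less with each of them.

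Mouse 2 of both AAV-Kl groups, among the mice with the highest fatty acid genes, was also the highest in genes of fat cells. All of 12 adipocyte markers, among them adiponectin (Adipoq), leptin (Lep) and perilipin 1 (Plin1), had reads in all 24 libraries. In bulk tissue, fewer cells of a type and less RNA per cell cannot be told apart. The summed CPM of these markers ran from 540 to 1845 in young sham, 659 to 1618 in young GFP, 626 to 976 in old GFP and 571 to 1107 in oldest-old GFP mice. Plin4, at 174 to 584 CPM over the 24 libraries, and Fabp4, at 145 to 839 CPM, weighed heavily in these sums. Which cells held the RNA of these markers was not tested. In young sham mice the highest sum was that of mouse 4, not of mice 2 and 3, which had 1300 and 1490 CPM. Old AAV-Kl mouse 2 had 2410 CPM and the rest of its group 558 to 722 CPM, and oldest-old AAV-Kl mouse 2 had 1914 CPM and its group otherwise 447 to 531 CPM. Genes of other cell types were high in these mice too. The summed CPM of 8 macrophage genes was 236 in old AAV-Kl mouse 2, beside 112 to 175 in its group, and 282 in oldest-old AAV-Kl mouse 2, beside 54.95 to 116 in its group. Old AAV-Kl mouse 2 also had the highest sums of its group for Schwann cell genes, 267 CPM, and for keratinocyte and sebaceous gland genes, 76.9 CPM. Oldest-old AAV-Kl mouse 2 had the highest hepatocyte sum of its group, 24.7 CPM beside 4.27 to 5.27 CPM. The mean log2 CPM of 6 brown adipocyte genes was 3.69 in oldest-old AAV-Kl mouse 2 and 0.69 to 1.78 in the 23 other mice. By summed CPM this mouse did not stand out for these genes, at 265 in a group of 263 to 275. The part of these cells in the values of the 8 genes was not tested.

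Across the 24 mice, the mean log2 CPM of the adipocyte markers correlated with Scd1 most closely, at r = 0.941 (adjusted permutation p = 0.00088) and rho = 0.901 (adjusted permutation p = 0.0008), group means removed and p-values adjusted over the 8 genes. For Fasn, Acaca, Acly, Elovl6 and Thrsp, r lay between 0.782 and 0.861 with adjusted permutation p of 0.00266 to 0.003, and rho between 0.719 and 0.817 with adjusted permutation p of 0.00257. Srebf1 had r = 0.583 (adjusted permutation p = 0.0222) and rho = 0.528 (adjusted permutation p = 0.0258). Sqle had r = 0.333 (adjusted permutation p = 0.239) and rho = 0.486 (adjusted permutation p = 0.0451). The 2 mice farthest from the median score were the ones numbered 2 in both AAV-Kl groups. They were left out after the group means of all 24 mice had been removed, and those means still held them. The values that follow are therefore not free of the 2 mice. For Scd1 r was then 0.905, and for the other 5 fatty acid genes 0.642 to 0.771, with unadjusted permutation p of 0.0332 or less. Srebf1 had r = 0.416 (permutation p = 0.0521), of the same sign but no longer past the threshold, and Sqle came to r = 0.462 (permutation p = 0.00378).

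**Figure D3:**
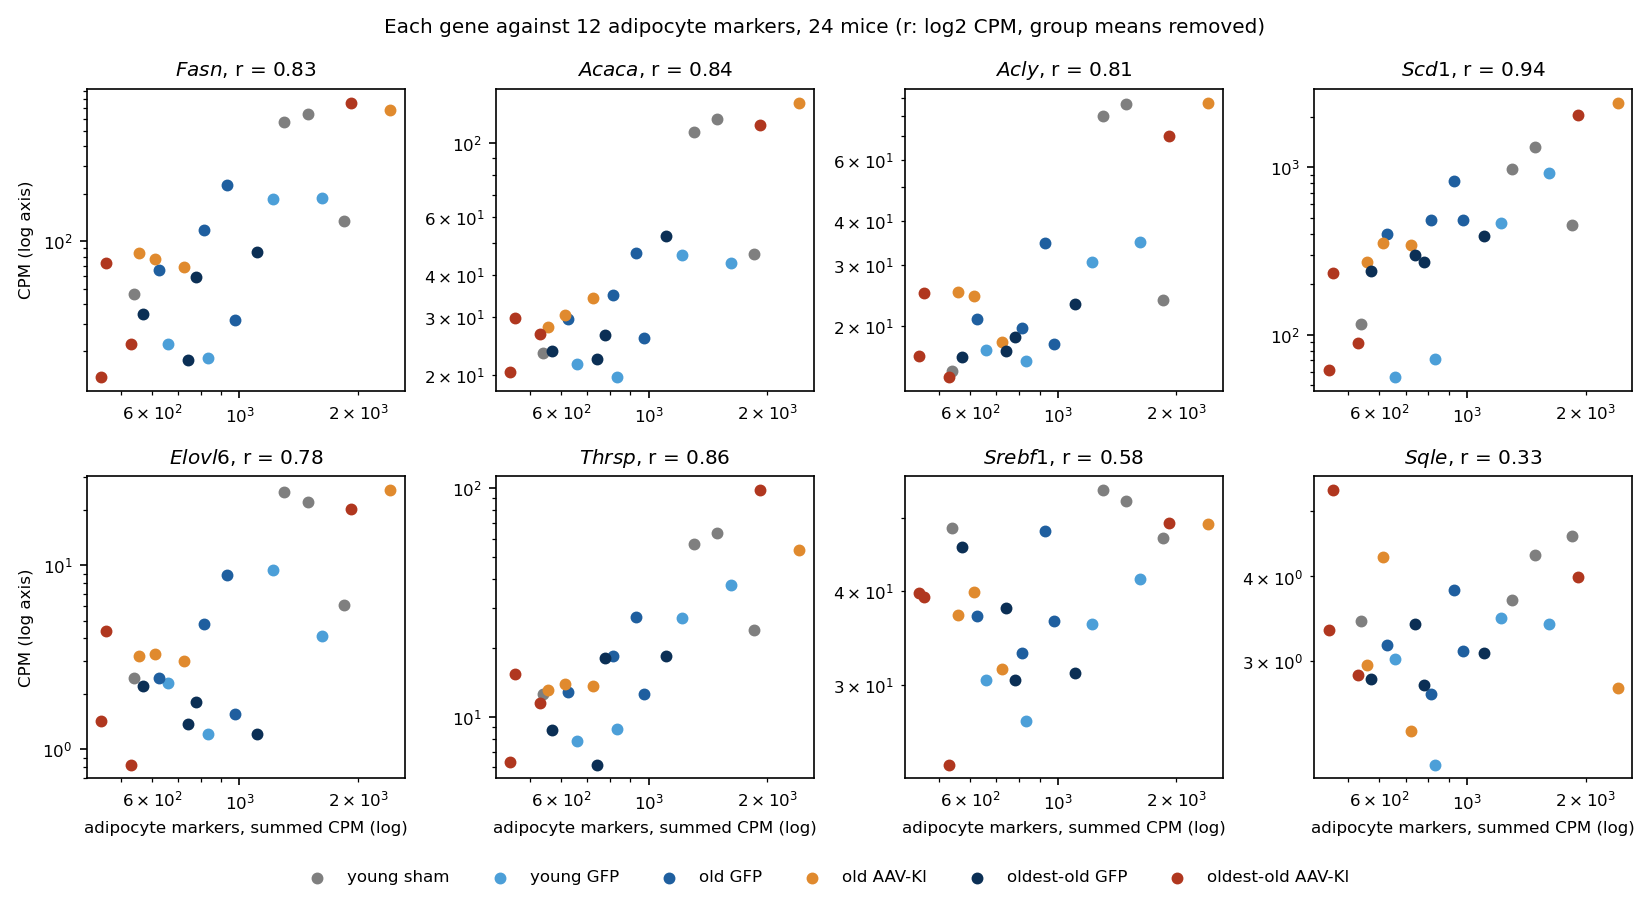
CPM of each of the 8 genes against the summed CPM of 12 adipocyte markers, both on log axes, 1 point per mouse, coloured by group. The r is not that of the plotted sum. It is that of the log2 CPM of the gene with the mean log2 CPM of the markers, group means removed. Scd1 follows the markers most closely (r = 0.94) and Sqle least (r = 0.33).

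The genes did not track the markers in a fixed ratio. Young sham mouse 4 had the highest marker sum of its group, 1845 CPM, but 135 CPM of Fasn, where young sham mice 2 and 3 had 569 and 645 CPM with marker sums of 1300 and 1490 CPM. On the log2 scale Fasn exceeded the marker score by 1.77, 3.66, 3.68 and 1.16 in young sham mice. In oldest-old AAV-Kl mice this difference was 0.44, 3.60, 1.10 and 2.57, and in old GFP mice 2.68, 1.64, -0.05 and 2.18. It was 0.64 to 2.34 in young GFP, 1.82 to 3.02 in old AAV-Kl and -0.51 to 2.10 in oldest-old GFP mice. Thrsp differed from the score by -0.58 to -0.39 in young GFP and -0.64 to -0.38 in old AAV-Kl mice. Its differences were wider in the other groups, at -1.34 to 0.33 in young sham, -1.39 to -0.37 in old GFP, -2.02 to -0.11 in oldest-old GFP and -0.67 to 0.65 in oldest-old AAV-Kl mice.

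Between young and old GFP mice, none of the 8 genes differed beyond the spread between mice. With edgeR's quasi-likelihood test in a single fit of the 24 libraries, 0 of 8 had an adjusted p-value under 0.05 (called), against 4.58% of the 17803 genes tested, all 8 being among those that passed the filter on low counts. At an unadjusted p under 0.05 it was also 0 of 8, by edgeR and by DESeq2, against 19% of all genes. In 0 of 8 genes did the groups stand apart, against 15.6% of all genes. The log2 fold changes, old against young, were 0.54 (SE 1.02) for Scd1, 0.20 (SE 0.19) for Srebf1 and 0.10 (SE 1.14) for Fasn, with a median over the 8 of 0.078 beside 0.0021 over all genes. For Acly the log2 fold change was -0.08 (SE 0.58) and for Thrsp -0.19 (SE 0.76), and the other 3 lay between 0.05 and 0.09. With the adipocyte score as a covariate the standard errors shrank, that of Fasn to 0.61, and Scd1 came to 0.90 (SE 0.34, edgeR adjusted p = 0.128). With a hepatocyte score as the covariate Fasn came to -1.005 (SE 1.55), and 11 of 12 hepatocyte genes were themselves called higher in old mice. The part of liver RNA in these values was not tested otherwise. Single mice turned several signs: without old GFP mouse 1, Fasn was at -0.53, Elovl6 at -0.55, Acaca at -0.13 and Sqle at -0.03, and without young GFP mouse 1 or 4 Fasn, Acaca and Elovl6 were also below 0 (Fasn -0.24 and -0.25). Without young GFP mouse 2, Thrsp was at 0.28 and Acly at 0.13, and Acly was also above 0 without young GFP mouse 3 or old GFP mouse 3. Without young GFP mouse 4 Sqle was at -0.05.

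Oldest-old GFP mice had lower values than young GFP mice for most of the genes, but again 0 of 8 were called, against 14.8% of all genes. The count at an unadjusted p under 0.05 was 0 of 8 by edgeR and by DESeq2, with 29.8% of all genes by edgeR, and in 0 of 8 did the groups stand apart, with 18.4% of all genes. Elovl6 had a log2 fold change of -1.38 (SE 0.99), Fasn of -1.07 (SE 1.16), Thrsp of -0.65 (SE 0.76) and Acly of -0.39 (SE 0.58). Those of Scd1 and Acaca were -0.33 (SE 1.01) and -0.06 (SE 0.60), and Srebf1 was at 0.10 (SE 0.19). Sqle was at 0.0063 (SE 0.20), and at -0.017 with the size factors of DESeq2. The median of the 8 was -0.36, beside 0.027 for all genes. The 12 adipocyte markers had a median of -0.48, with 0 of 12 above 0 and 0 of 12 called. With the adipocyte score in the model, Fasn came to -0.07 (SE 0.61), Elovl6 to -0.92 (SE 0.61) and Scd1 to 0.81 (SE 0.35, edgeR adjusted p = 0.11), the last with the opposite sign. Scd1 also turned, to 0.61, without young GFP mouse 2, and the values of Acaca, Srebf1 and Sqle, all near 0, changed sign with 4, 2 and 4 of the 8 mice left out in turn.

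From old to oldest-old GFP mice, the log2 fold changes of all 8 genes were below 0, with a median of -0.39 beside 0.020 for all genes, and 0 of 8 were called, against 0.00562% of all genes. At an unadjusted p under 0.05 there were 0 of 8 by edgeR and by DESeq2, against 12% of all genes by edgeR. Elovl6 had -1.43 (SE 0.99), Fasn -1.17 (SE 1.16), Scd1 -0.87 (SE 1.02) and Thrsp -0.46 (SE 0.76). Acly, Acaca, Srebf1 and Sqle lay between -0.31 and -0.08. Scd1 was the 1 gene of 8 whose groups stood apart, at 401 to 823 against 241 to 388 CPM, where 5.65% of all genes did. In a fit of these 8 libraries alone, without the spread of the other groups, Scd1 came to -0.88 (SE 0.24, edgeR adjusted p = 0.546) and Elovl6 to -1.44 (SE 0.51, edgeR adjusted p = 0.546). With the adipocyte score in the model of 24 libraries, Scd1 came to -0.10 (SE 0.35) and Fasn to -0.30 (SE 0.61). The 12 adipocyte markers had a median of -0.34, with 1 of 12 above 0. Without old GFP mouse 1, Acaca, Srebf1 and Sqle were at 0.05, 0.03 and 0.01.

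AAV-Kl was compared with GFP at each age to ask whether circulating Klotho changes muscle. In old mice, 7 of the 8 log2 fold changes were above 0, with a median of 0.67 beside 0.0076 over all genes, and 0 of 8 were called, as were 0% of all genes. By edgeR and by DESeq2, 0 of 8 had an unadjusted p under 0.05 (2.1% of all genes by edgeR), and in 0 of 8 did the groups stand apart (1.68%). Fasn had 1.04 (SE 1.15), Elovl6 0.98 (SE 0.94), Acly 0.73 (SE 0.58) and Acaca 0.71 (SE 0.60). Scd1 was at 0.63 (SE 1.02), Thrsp at 0.40 (SE 0.76), Srebf1 at 0.03 (SE 0.19) and Sqle at -0.05 (SE 0.20). The values above 0 rested on mouse 2. Without it, Fasn was at -0.53 (SE 1.16), Scd1 at -0.77 (SE 1.03), Elovl6 at -0.49 (SE 0.93), Thrsp at -0.40 (SE 0.78), Acaca at -0.15 (SE 0.56) and Acly at -0.05 (SE 0.55). With all mice and the adipocyte score in the model, Fasn was at 0.39 (SE 0.60) and Scd1 at 0.03 (SE 0.34). The adipocyte markers had a median of 0.33, with 10 of 12 above 0. Srebf1 was also below 0 without old GFP mouse 4 (-0.04), and Sqle was above 0 without AAV-Kl mouse 1 (0.06), AAV-Kl mouse 2 (0.0009) or GFP mouse 1 (0.05).

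In oldest-old mice, all 8 log2 fold changes of AAV-Kl against GFP were above 0, with a median of 0.88 beside 0.012 over all genes. None was called, against 0.0112% of all genes, and 0 of 8 had an unadjusted p under 0.05 by edgeR, against 8% of all genes. DESeq2 also called 0 of 8, and gave an unadjusted p under 0.05 to 1, Elovl6. Over all genes it gave such a p to 776 with higher and 683 with lower values. In 0 of 8 did the groups stand apart, against 2.65% of all genes. Fasn had the largest value, 2.14 (SE 1.19, edgeR adjusted p = 0.665), followed by Elovl6 with 2.03 (SE 0.99, edgeR adjusted p = 0.624) and Thrsp with 1.35 (SE 0.77). Scd1 was at 1.02 (SE 1.02), Acly at 0.74 (SE 0.58), Acaca at 0.60 (SE 0.60), Sqle at 0.37 (SE 0.20) and Srebf1 at 0.06 (SE 0.19). Mouse 2 again carried most of this. Without it, Fasn was at -0.44 (SE 1.05), Scd1 at -1.23 (SE 0.93), Thrsp at -0.22 (SE 0.66), Acaca at -0.29 (SE 0.56) and Acly at -0.02 (SE 0.55). Elovl6 and Sqle stayed above 0, at 0.43 (SE 0.94) and 0.35 (SE 0.22). With all mice and the adipocyte score as a covariate, Elovl6 had 1.48 (SE 0.60, edgeR adjusted p = 0.45), Thrsp 0.86 (SE 0.36, edgeR adjusted p = 0.458) and Scd1 0.10 (SE 0.34). The adipocyte markers had a median of 0.31, with 9 of 12 above 0. Plin4 was not among those above 0, at -0.56 (SE 0.31). Srebf1, at -0.09 without mouse 2, was also below 0 without oldest-old GFP mouse 1 (-0.01) or mouse 4 (-0.0019).

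**Figure D4:**
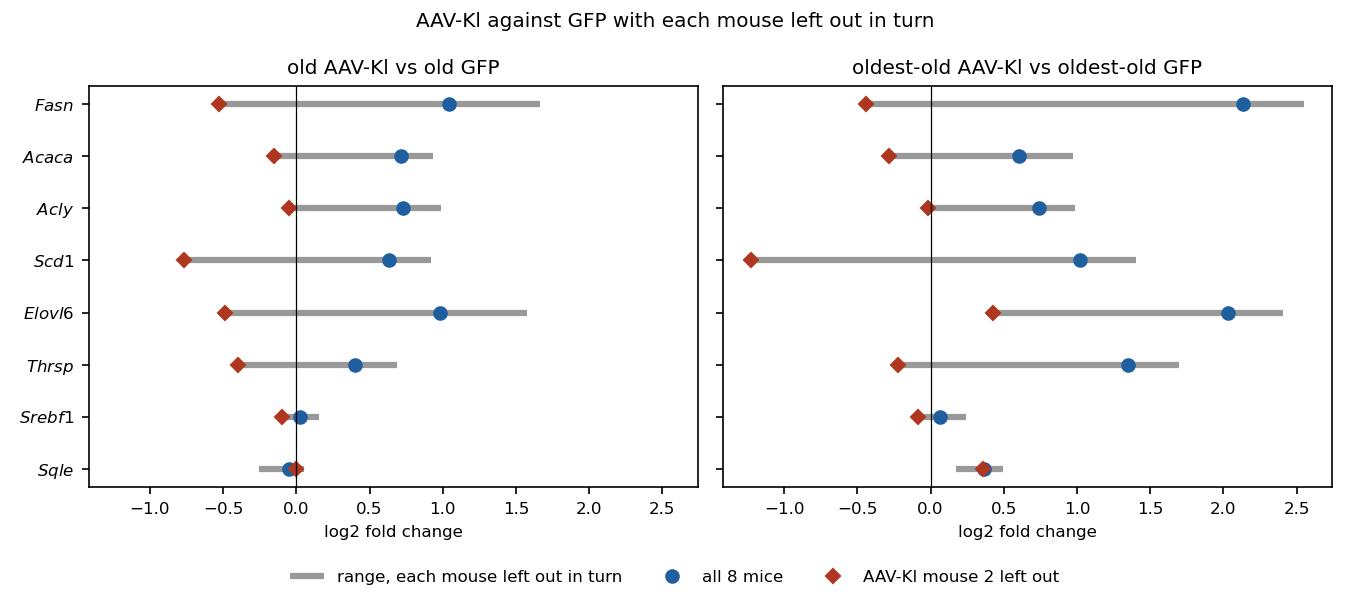
Log2 fold change of each gene between AAV-Kl and GFP mice, at old and oldest-old age, with all 8 mice (circles), without AAV-Kl mouse 2 (diamonds) and the range when each of the 8 mice is left out in turn (bars). Without mouse 2, Fasn moves from 1.04 to -0.53 in old and from 2.14 to -0.44 in oldest-old mice, while Sqle moves from 0.37 to 0.35 in oldest-old mice.

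Whether AAV-Kl acted differently at the 2 ages was tested as an interaction. The effect in oldest-old minus that in old mice had a median of 0.40 over the 8 genes, beside 0.0001 over all genes, and 0 of 8 were called, against 0.00562% of all genes. The unadjusted count was 0 of 8 by edgeR and by DESeq2, against 5.7% of all genes by edgeR. Fasn had 1.09 (SE 1.62), Elovl6 1.05 (SE 1.35) and Sqle 0.42 (SE 0.28). With mouse 2 of both AAV-Kl groups left out, an alternative chosen after the data were seen, Fasn had 0.09 (SE 1.30), Elovl6 0.91 (SE 1.11) and Scd1 -0.47 (SE 1.11). Without only the oldest-old one of them Fasn was at -1.47, Elovl6 at -0.55 and Thrsp at -0.62, and without only the old one at 2.67, 2.52 and 1.75. The values of Acaca, Acly and Srebf1, all near 0, changed sign with 6, 7 and 5 of the 16 mice left out in turn.

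Young GFP mice had lower values than young sham mice for all 8 genes, with a median log2 fold change of -1.002 beside -0.025 over all genes. Of these, 0 of 8 were called, against 0.466% of all genes, and Srebf1 and Sqle had an unadjusted p under 0.05 (2 of 8, against 13.4% of all genes). Srebf1 had -0.59 (SE 0.19, edgeR adjusted p = 0.192) and was the 1 gene of 8 whose groups stood apart, as they did in 9.77% of all genes. Its value without each mouse in turn was -0.69 to -0.47, and with the adipocyte score in the model -0.49 (SE 0.16, edgeR adjusted p = 0.222). Sqle had -0.42 (SE 0.20, edgeR adjusted p = 0.368). With the size factors of DESeq2 only Srebf1 had an unadjusted p under 0.05, as had 1153 higher and 1296 lower genes of all 17803. DESeq2 called 0 of 8 and gave an unadjusted p under 0.05 to Srebf1 alone. Over all genes it gave such a p to 1205 with higher and 1343 with lower values. The fatty acid genes had larger and less certain values, at -1.75 (SE 1.18) for Fasn, -1.70 (SE 0.95) for Elovl6, -1.17 (SE 0.60) for Acaca, -1.06 (SE 0.58) for Acly, -0.94 (SE 0.76) for Thrsp and -0.92 (SE 1.02) for Scd1. The adipocyte markers had a median of -0.52 in the same comparison, with 2 of 12 above 0 and 0 of 12 called. Plin4 was among those above 0, at 0.75 (SE 0.31). With the adipocyte score, Fasn came to -0.98 (SE 0.63) and Elovl6 to -0.82 (SE 0.60). The sum of keratinocyte and sebaceous gland markers, 9.17 to 151 CPM in young sham and 5.92 to 392 CPM in young GFP mice, overlapped between the groups. Those of 8 macrophage genes did not overlap, at 96.0 to 184 CPM in young sham and 56.8 to 93.9 CPM in young GFP mice, with 0 of 8 called, 5 of 8 at an unadjusted p under 0.05 and a median of -0.84. Of 12 hepatocyte genes 0 were called, 12 of 12 were below 0 with a median of -4.05 and 5 of 12 had an unadjusted p under 0.05, with sums of 5.41 to 40.2 CPM in young sham mice and 3.93 to 14.5 CPM in young GFP mice, and 8 Schwann cell genes had a median of -0.44 with 0 called. The part of these cells in the values of Srebf1 and Sqle was not tested. With a keratinocyte score as a covariate, 0 of 8 were called and 4, Acaca, Elovl6, Srebf1 and Sqle, had an unadjusted p under 0.05. Of all 17803 genes in that fit, 89 were called, and 927 with higher and 1790 with lower values had an unadjusted p under 0.05.

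**Figure D5:**
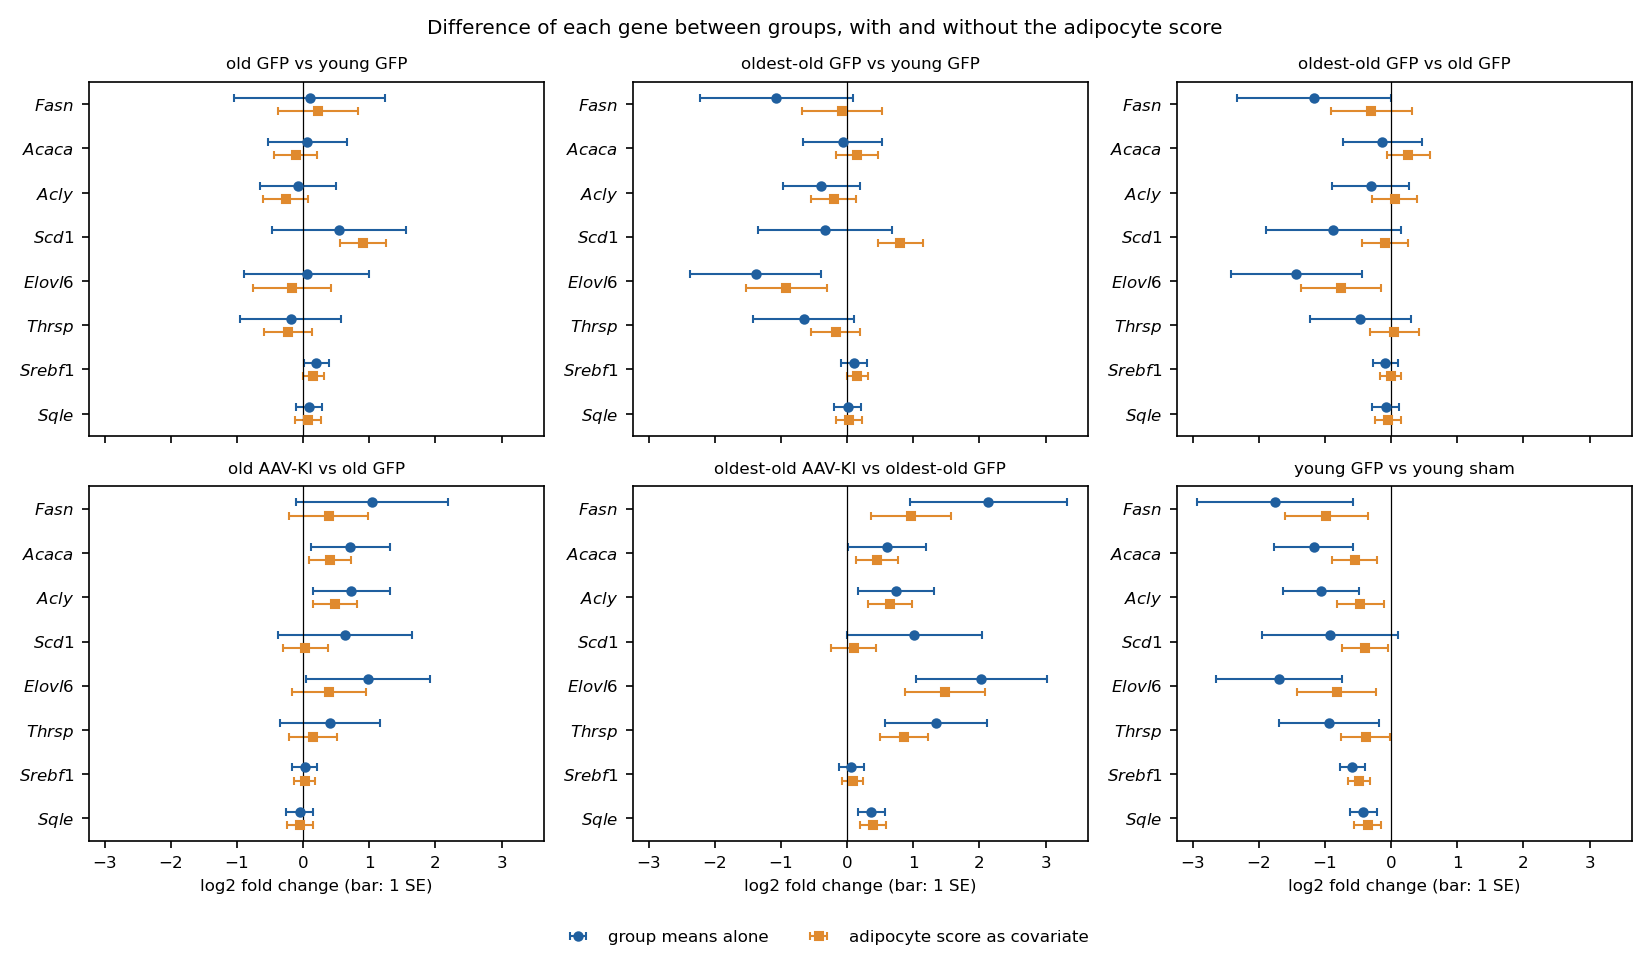
Log2 fold change of each of the 8 genes in 6 comparisons of 4 mice with 4, with bars of 1 SE, from group means alone (circles) and with the adipocyte score as a covariate (squares). The bars of Fasn shrink from 1.14 to 0.61 for old against young GFP mice, and the bars of Srebf1 and Sqle are the shortest.

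Other genes of lipid synthesis were called in oldest-old against young GFP mice only among the 7 comparisons, where 14.8% of all genes were. Of 18 other genes of fatty acid synthesis and modification tested, 1 rose and 1 fell. Mid1ip1, a partner of acetyl-CoA carboxylase related to Thrsp, rose with a log2 fold change of 1.14 (SE 0.29, edgeR adjusted p = 0.011), and Hacd1, a dehydratase of fatty acid elongation found in muscle, fell with -0.93 (SE 0.17, edgeR adjusted p = 0.00153). Of 19 other sterol synthesis genes, Mvd rose by 0.65 (SE 0.15, edgeR adjusted p = 0.00818) and Hmgcs1, the enzyme before HMG-CoA reductase, fell with -0.31 (SE 0.09, edgeR adjusted p = 0.0251). Of 16 regulators, Scap, which escorts SREBP proteins out of the endoplasmic reticulum, rose by 0.32 (SE 0.09, edgeR adjusted p = 0.0213) and Mlx by 0.26 (SE 0.09, edgeR adjusted p = 0.0465), and the thyroid hormone receptor Thra fell with -0.45 (SE 0.15, edgeR adjusted p = 0.0454). Of 11 triglyceride synthesis genes, Gpat4 fell with -0.24 (SE 0.05, edgeR adjusted p = 0.00325). In the other 6 comparisons 0 genes of these 4 lists were called. For AAV-Kl against GFP in oldest-old mice, 17 of the 19 sterol genes had a log2 fold change above 0, with a median of 0.19, and 4 of 19 had an unadjusted p under 0.05 (against 8% of all genes). Without mouse 2, an alternative chosen after the data were seen, 16 of the 19 were above 0, with a median of 0.14. In old mice 6 of the 19 were above 0, with a median of -0.03, and 1 had an unadjusted p under 0.05, against 2.1% of all genes. That gene, Mvk, was lower in old (log2 fold change -0.23, SE 0.08) and higher in oldest-old mice (0.29, SE 0.08), and is named after its values were seen. The other fatty acid genes had 14 of 18 above 0 in oldest-old mice, with a median of 0.18, and the triglyceride genes 9 of 11, with a median of 0.31. Without mouse 2 these were 11 of 18, with a median of 0.05, and 3 of 11, with a median of -0.17.

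The genes whose log2 CPM were most like those of each gene over the 24 libraries were named by Pearson's r, as a description. Tkt, the transketolase of the pentose phosphate pathway, was the nearest to Acaca (r = 0.976), Acly (r = 0.965) and Fasn (r = 0.963), and among the 3 nearest to Elovl6 and Thrsp. Slc25a1, the carrier that exports citrate from mitochondria, was the nearest to Elovl6 (r = 0.938) and among the 3 nearest to Fasn, Acaca and Acly. Agpat2, an enzyme of glycerolipid synthesis, was the nearest to Thrsp (r = 0.967). Pygl, a glycogen phosphorylase, was among the nearest to Fasn (r = 0.954) and Elovl6. For Scd1 the nearest gene was resistin, Retn (r = 0.957), itself one of the adipocyte markers, followed by Chst1 and Tmem179. Srebf1 was closest to Dtx4 (r = 0.887), Enpep (r = 0.878) and Notch3 (r = 0.865). The nearest gene to Sqle was Msmo1 (r = 0.825), which acts after it in sterol synthesis, followed by Gnai3 (r = 0.816). With group means removed, these values were 0.794 or more.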

How the data were processed

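RNA-seq libraries of gastrocnemius muscle from 24 mice were analysed. The authors aligned reads to GRCm38/mm10 with STAR and deposited raw counts per gene, and the unstranded counts were used; the annotation is not given in the sources used here. Symbols and positions are those of GENCODE M21, of which 54487 of 55385 identifiers had the same version. Groups come from the labels. Counts were scaled by TMM, filtered by filterByExpr (17803 genes) and compared in a single fit of group means with edgeR 4.0.16 (quasi-likelihood, robust, Benjamini-Hochberg over all genes tested, called under 0.05). The SE of a log2 fold change is its size over the root of F. Each group holds 4 mice. The edgeR p-values weigh a difference against the spread between mice within groups, pooled over the 6 groups, which can differ from that of the groups compared. DESeq2 1.42.0, other size factors, no filter, other sample sets, a replicate block, marker scores as covariates and leaving out each mouse were the alternatives. The scripts were tested on simulated data. Log2 CPM used a prior count of 2. The 8 genes are named in every comparison, and of each other list up to 4 called genes with the largest change. For each of the 8 genes the 3 genes most like it across libraries were found, of which some are not reported here. The genes and lists were chosen with earlier results of these data known. Depth was 36415886 to 59733985 reads on genes, and the lowest count of any of the 8 genes was 43, so counting error is small beside the spread between mice.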

Additional observations from a re-analysis of the deposited data

Results flagged for a closer look

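In groups of 4 mice, a mouse was singled out where its gap to the nearest other value was above Dixon's critical value for 4 samples, as a share of the range of the group. This held in 13 of the 54 groups examined (8 genes and the summed adipocyte markers in 6 groups). Chance gives about 1 in 20 where values are normally distributed. The values used here were CPM, not log2 CPM, so 13 of 54 is not read as an excess over chance. The genes are correlated, so these are not separate events. Old AAV-Kl mouse 2 stood out for 7 measures. It had 682 CPM of Fasn beside 68.3 to 84.2 CPM in the others, 132 CPM of Acaca beside 27.9 to 34.2 CPM and 87.3 CPM of Acly beside 17.99 to 25.1 CPM. Its Scd1 was at 2430 CPM beside 270 to 353 CPM, its Elovl6 at 25.6 CPM beside 3.03 to 3.28 CPM and its Thrsp at 53.8 CPM beside 13.1 to 13.9 CPM. The adipocyte markers of that mouse summed to 2410 CPM beside 558 to 722 CPM. Its macrophage genes summed to 236 CPM beside 112 to 175 CPM, its Schwann cell genes to 267 CPM beside 157 to 182 CPM and its keratinocyte and sebaceous gland genes to 76.9 CPM beside 3.57 to 6.48 CPM.

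Oldest-old AAV-Kl mouse 2 stood out for 5 measures, with 756 CPM of Fasn beside 13.7 to 72.8 CPM, 113 CPM of Acaca beside 20.5 to 29.8 CPM, 2041 CPM of Scd1 beside 61.1 to 233 CPM and 97.9 CPM of Thrsp beside 6.32 to 15.4 CPM. Its adipocyte markers summed to 1914 CPM beside 447 to 531 CPM and its macrophage genes to 282 CPM beside 54.95 to 116 CPM. Its hepatocyte genes summed to 24.7 CPM beside 4.27 to 5.27 CPM. Its brown adipocyte score, a mean log2 CPM, was 3.69 beside 0.98 to 1.14. The summed CPM of these genes, most of it from Cox8b and Cox7a1, was 265 in a group of 263 to 275. Oldest-old GFP mouse 4 stood out for Acaca, at 52.4 CPM beside 22.4 to 26.5 CPM, and its adipocyte markers summed to 1107 CPM, the highest of its group, while their mean log2 CPM, at 4.32, was below the 4.54 and 4.65 of mice 1 and 2. The part of fat tissue and of the other cell types in these values was not tested beyond the fits with marker scores.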

How the results depend on the processing

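The number of genes called was 0 of 8 in every comparison under every alternative. The lowest adjusted p of any of the 8 genes under an alternative was 0.0792, for Srebf1 in young GFP against young sham mice, in a fit of those groups alone. In that comparison the log2 fold changes of all 8 genes stayed below 0 throughout. Elsewhere, 105 values changed sign over 888 refits of a log2 fold change. No value that changed sign was past the threshold, and the cause was not tested.

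With the adipocyte score as a covariate, old against young GFP mice came to -0.11 for Acaca and -0.17 for Elovl6, and oldest-old against young GFP mice to 0.15 for Acaca and 0.81 for Scd1. Oldest-old against old GFP mice came to 0.26 for Acaca, 0.055 for Acly and 0.051 for Thrsp, and the interaction to 0.038 for Acaca. With the hepatocyte score, old against young GFP mice came to -1.005 for Fasn, -0.17 for Acaca, -0.91 for Elovl6 and -0.13 for Sqle, and oldest-old against young GFP mice to -0.0019 for Sqle. With that score oldest-old against old GFP mice came to 0.10 for Acaca, 0.0096 for Srebf1 and 0.13 for Sqle, and the interaction to -0.16 for Acly and -0.0075 for Srebf1. With the keratinocyte score, Acly came to 0.10 in old and Acaca to 0.20 in oldest-old against young GFP mice, and Acaca to 0.044 in the interaction. In oldest-old against young GFP mice, Sqle came to -0.017 with the size factors of DESeq2, -0.0089 without a filter, -0.019 with DESeq2 and -0.0098 with those groups alone. Without mouse 2 of both AAV-Kl groups, chosen after the data were seen, Scd1 came to -0.47 in the interaction.

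Replicate numbers did not pair the mice: of 4 same-numbered pairs, 0 to 2 per comparison had a correlation of their deviations over 0.1. With the replicate number as a block, Acly came to 0.10 and Thrsp to 0.21 in old against young GFP mice, and Acaca to 0.10, Scd1 to 0.53 and Sqle to -0.0068 in oldest-old against young GFP mice. In old AAV-Kl against old GFP mice the block gave -0.18 for Fasn, -0.36 for Scd1 and -0.054 for Thrsp, and in oldest-old mice -0.19 for Scd1. The median over the 8 genes was -0.02 with the block and 0.67 without it in old mice, and 0.40 and 0.88 in oldest-old mice. What the replicate number stands for was not tested. It called 0 of 8 genes in each comparison.

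Leaving out each mouse in turn, values of old against young GFP mice ranged from -0.53 to 0.57 for Fasn, -0.13 to 0.26 for Acaca, -0.35 to 0.13 for Acly, -0.55 to 0.79 for Elovl6, -0.49 to 0.28 for Thrsp and -0.053 to 0.15 for Sqle. Oldest-old against young GFP mice ranged from -0.45 to 0.12 for Acaca, -0.71 to 0.61 for Scd1, -0.037 to 0.21 for Srebf1 and -0.14 to 0.064 for Sqle. Oldest-old against old GFP mice ranged from -0.50 to 0.052 for Acaca, -0.22 to 0.029 for Srebf1 and -0.16 to 0.012 for Sqle. Old AAV-Kl against old GFP mice ranged from -0.53 to 1.66 for Fasn, -0.15 to 0.93 for Acaca, -0.052 to 0.99 for Acly, -0.77 to 0.92 for Scd1, -0.49 to 1.57 for Elovl6, -0.40 to 0.69 for Thrsp, -0.096 to 0.15 for Srebf1 and -0.25 to 0.056 for Sqle. Oldest-old AAV-Kl against oldest-old GFP mice ranged from -0.44 to 2.55 for Fasn, -0.29 to 0.98 for Acaca, -0.021 to 0.99 for Acly, -1.23 to 1.403 for Scd1, -0.22 to 1.69 for Thrsp and -0.087 to 0.24 for Srebf1. The interaction ranged from -1.47 to 2.67 for Fasn, -0.997 to 0.76 for Acaca, -0.75 to 0.79 for Acly, -1.85 to 1.79 for Scd1, -0.55 to 2.52 for Elovl6, -0.62 to 1.75 for Thrsp and -0.12 to 0.21 for Srebf1.

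With the 2 mice farthest from the median adipocyte score left out, r with that score came to 0.416 for Srebf1 (permutation p = 0.0521) and 0.462 for Sqle (permutation p = 0.00378). The group means removed still held those 2 mice. Counts over all genes moved more. Old against young GFP mice had 815 called genes, 446 without a filter, 273 with the hepatocyte and 457 with the keratinocyte score, 1226 with DESeq2 and 1250 with the groups alone. Leaving out 1 mouse gave 348 (young GFP mouse 4), 349 (old GFP mouse 1), 419 (young GFP mouse 3), 424 (young GFP mouse 1), 497 (young GFP mouse 2), 511 (old GFP mouse 2) and up to 678 with the others. Oldest-old against young GFP mice had 2626, 1721 without a filter, 1237 with the groups alone, 1642 without young GFP mouse 4 and 1700 without young GFP mouse 1. Oldest-old against old GFP mice had 1, or 120 with DESeq2, and oldest-old AAV-Kl against GFP mice 2, or 26 with DESeq2. Young GFP against young sham mice had 83, 47 without a filter, 284 with DESeq2, 170 with the groups alone, 2 with the hepatocyte score, 1 without young sham mouse 2, 30 without young sham mouse 3 and 43, 37 and 11 without young GFP mice 1, 2 and 4. There, 49 of the 83 called genes were higher, and 54 of 74 with the size factors of DESeq2.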
